A study of Mus musculus with 15 samples.

Results

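Cadherins are membrane proteins that hold cells to one another, and this account covers every measured mouse gene whose symbol is Cdh with a number or begins with Pcdh, apart from the endothelial cadherin Cdh5. The array read 55 such genes of the 92 in the RefSeq table (GRCm38.p6), out of 18193 genes measured in all. Of the 37 genes not read through a probe set with a single gene symbol, 35 belong to the clustered protocadherins and the other two are Cdh12 and Cdh24. Where several probe sets read a gene, the brightest one, by its mean level, was taken. The measured genes comprised 10 neural cadherins, 5 epithelial cadherins, 5 other cadherins, 12 protocadherins outside the clusters and 23 clustered protocadherins.

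The tumours were small cell lung cancers (SCLC), a neuroendocrine type, that grew in mice given an adenovirus carrying Cre recombinase through the nose. Expression was measured in 3 lung tumours lacking Rb, p53 and p130 (spelled Rb Δ/Δ and p53 Δ/Δ together with p130 Δ/Δ, labels 11 to 13), dissected after ageing for 6 months, in 10 lung tumours lacking Rb and p53 (RbΔ/Δ; p53 Δ/Δ; labels 1 to 10), dissected after 8 to 12 months, and in 2 normal lungs of wild-type adult mice without tumours (labels 1 and 2). The virus deletes alleles in the airway cells it enters, and the rest of each mouse keeps its genes, so a dissected tumour can hold host cells. p130 loss and the shorter time go together in these groups and cannot be told apart, and the labels give the normal lungs no virus and no age beyond adult. Whether each array had its own mouse is not stated, so p-values below cover only the spread between these samples, which may be technical in part.

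Classical cadherins bind the same cadherin on the neighbouring cell and are tied to actin inside the cell by catenins. E-cadherin, encoded by Cdh1, joins epithelial cells, and N-cadherin, encoded by Cdh2, is the main classical cadherin of neurons and is also made by mesenchymal cells. Protocadherins bind more weakly and act mostly in the nervous system, where neurons choose among the clustered alpha, beta and gamma genes so that neighbouring cells differ.

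Levels are log2 expression values on one scale across arrays, whose medians lay between 6.58 and 6.68. A level of 5.05, the highest lower quartile of any array, is used below as a dim limit. It is not known to be the edge of the background, and 14 of the 55 genes had all 3 group means at or below it. Levels were compared between samples for 1 probe set at a time and never between genes. The number of arrays limits the precision. Of the targeted genes, Rb1 read 11.67 to 11.89 in Rb/p53/p130 tumours, 10.98 to 12.19 in Rb/p53 tumours and 10.05 to 10.34 in normal lung, and Rbl2, which encodes p130, read 8.39 to 8.82, 7.68 to 9.09 and 9.56 to 9.58 in the same order. Without the place of these probe sets in the genes, it is unknown whether they read the deleted parts, and they are no check of the labels. The other targeted gene was not analysed here.

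The labelled tissues were set against marker genes. All 9 measured neuroendocrine markers were higher in both tumour groups, with a list mean of 10.78 to 11.19 in Rb/p53/p130 tumours and 10.64 to 11.55 in Rb/p53 tumours, against 5.20 and 5.46 in normal lung. Lists of alveolar, airway, endothelial, mesothelial and fibroblast markers had lower means in every tumour than in either lung. Alveolar type 1 markers averaged 9.49 to 9.69 in Rb/p53/p130 tumours and 8.04 to 10.77 in Rb/p53 tumours, against 12.72 and 12.99 in normal lung, and 6 and 7 of the 7 were called lower. Macrophage and lymphocyte markers overlapped between groups, with a list mean of 7.69 to 8.29 in Rb/p53/p130 tumours and 7.75 to 8.72 in Rb/p53 tumours, against 8.16 and 8.58 in normal lung. In bulk tissue, fewer cells of a type and less RNA per cell cannot be told apart.

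Of the 55 cadherin and protocadherin genes, 7 were higher and 9 lower in Rb/p53/p130 tumours than in normal lung (limma, Benjamini-Hochberg adjusted p under 0.05 over all probe sets). In that comparison 15.3% of all genes were called higher and 15.6% lower. In Rb/p53 tumours 8 were higher and 11 lower than in normal lung, where 18.3% of all genes were called higher and 20.5% lower. Without normal lung 2, 5 genes were higher in Rb/p53 tumours. Fitted without the Rb/p53 tumours, 11 were higher in Rb/p53/p130 tumours. Probe sets above the median level left 18 of the 55 genes, of which 4 were lower in either comparison. That level is a mean over all 15 arrays, 13 of them from tumours, so genes dim in tumours drop out more readily. With the Gapdh covariate described below, 2 were higher and 2 lower in either comparison. Without these alternatives, the shares of the family called were close to or below those of all genes. The median changes were 0.12 and 0.07 for the family, against -0.02 and -0.02 for all genes. Both comparisons use the same 2 normal lungs, so their values are given side by side and their likeness is not counted. Against these lungs, 17 of the 55 genes lay wholly above and 13 wholly below in Rb/p53/p130 tumours. In Rb/p53 tumours these numbers were 8 and 10. The share over all genes was not counted, so a lack of overlap with lung is given below only as a description. The plot of changes by gene shows rises and falls side by side among the other cadherins and the delta protocadherins.

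**Figure D1:**
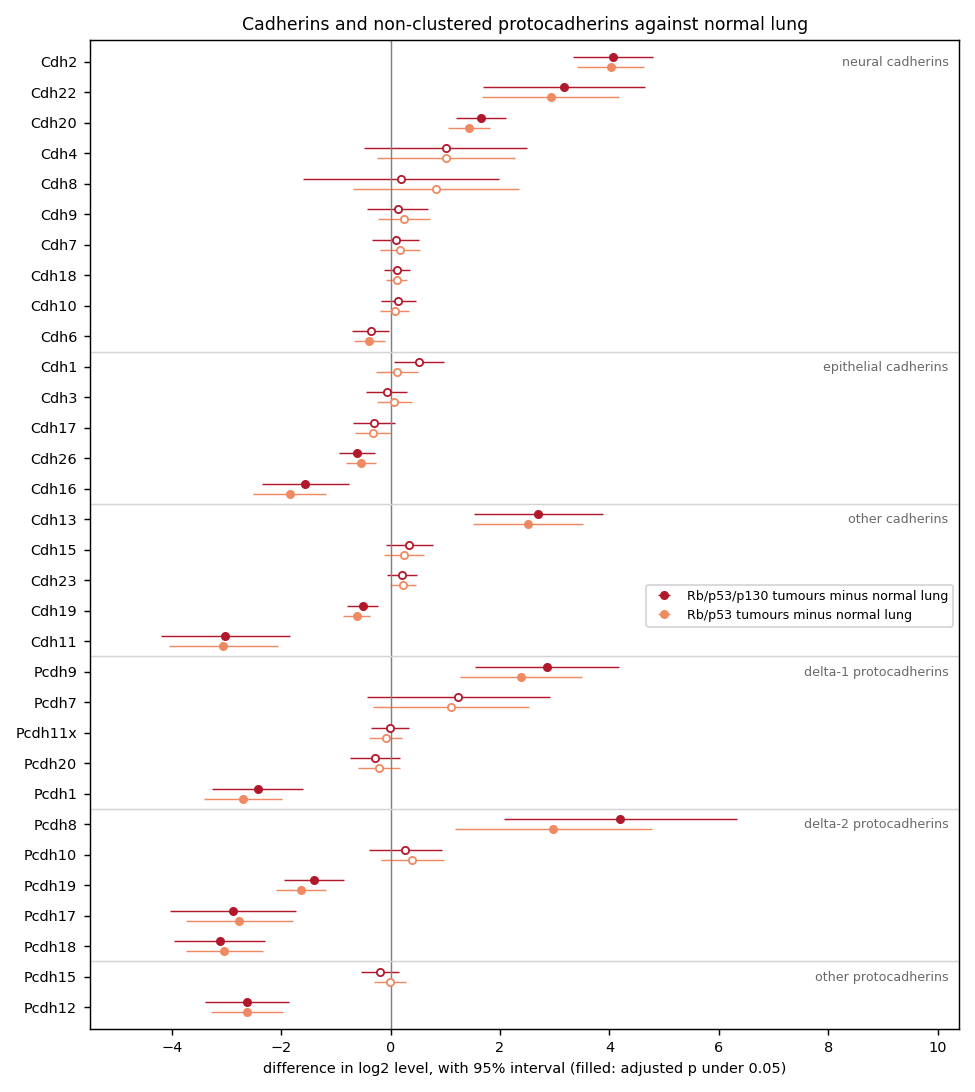
Difference in log2 level from normal lung (x axis) for each cadherin and non-clustered protocadherin (y axis), by class, with 95% intervals; dark points are Rb/p53/p130 tumours, light points Rb/p53 tumours, and filled points had an adjusted p under 0.05. Among the cadherins Cdh2 stands highest at 4.07 and 4.02, and Pcdh8 lies above it in Rb/p53/p130 tumours only. Cdh11 and Pcdh18 lie near -3 in both groups.

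Among the neural cadherins, 3 of 10 measured were higher in either tumour group than in normal lung. They were Cdh2, Cdh20 and Cdh22, and Cdh6 was called lower in Rb/p53 tumours. Among all genes, 15.3% were called higher in Rb/p53/p130 tumours and 18.3% in Rb/p53 tumours, and the median change was -0.02 in either comparison. Whether the neural list differs from all genes was not tested. The median change of the 10 neural cadherins was 0.16 in Rb/p53/p130 tumours (0.29 without normal lung 1 and 0.25 without Rb/p53/p130 tumour 13) and 0.53 in Rb/p53 tumours (0.34 without Rb/p53 tumour 1). Over the 4 of these genes with a probe set above the median level it was 2.41 and 2.18, and with the Gapdh covariate described below it was 1.19 and 1.22. The 4 genes were picked by their mean over all arrays, most of them from tumours. In normal lung, Cdh20 and Cdh22 averaged 6.22 and 6.17, below the median of every array. The larger median over the 4 genes thus follows in part from how they were picked. Cdh2, N-cadherin, separated tumour from lung clearly. Its level was 11.23, 11.17 and 10.98 in the Rb/p53/p130 tumours, 10.64 to 11.91 with a median of 10.91 in the Rb/p53 tumours, and 7.01 and 7.09 in the normal lungs. Every tumour lay more than 3 log2 units above both lungs. The rise was 16.8-fold in Rb/p53/p130 tumours (log2 4.07 ± 0.34, SE, limma adjusted p = 6.88e-07) and 16.2-fold in Rb/p53 tumours (4.02 ± 0.29, limma adjusted p = 9.94e-08). A second Cdh2 probe set was called higher in both groups as well. Nerve is another tissue that expresses this cadherin, and of 5 measured markers of neurons and Schwann cells 1 was higher and 0 lower in Rb/p53/p130 tumours (1 and 0 at an unadjusted p under 0.05) and 1 was higher and 1 lower in Rb/p53 tumours, with a list mean of 7.11 to 7.30 and 7.07 to 7.91 in these groups, against 7.14 and 7.44 in normal lung. Their part in the rise was not tested.

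Cdh22, a type II cadherin of brain and pituitary, read 9.67, 9.75 and 8.60 in Rb/p53/p130 tumours, 6.94 to 10.05 with a median of 9.18 in Rb/p53 tumours, and 5.96 and 6.38 in normal lung. All tumours were above both lungs, and Rb/p53 tumour 5, at 6.94, stood nearest to them. The change was 9.01-fold in Rb/p53/p130 tumours (3.17 ± 0.69, limma adjusted p = 0.00347) and 7.59-fold in Rb/p53 tumours (2.92 ± 0.59, limma adjusted p = 0.00137). Cdh20, another type II cadherin of the developing nervous system, varied far less between tumours. It read 7.72, 7.71 and 8.17 in Rb/p53/p130 tumours, 7.20 to 7.93 with a median of 7.70 in Rb/p53 tumours, and 6.14 and 6.31 in normal lung. The tumours and lungs did not overlap, and the change was 3.13-fold in Rb/p53/p130 tumours (1.64 ± 0.21, limma adjusted p = 4.8e-05) and 2.70-fold in Rb/p53 tumours (1.43 ± 0.18, limma adjusted p = 2.62e-05).

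Cdh4, R-cadherin, which was first described in the retina, was spread widely. It read 7.95, 7.78 and 8.18 in Rb/p53/p130 tumours, 6.66 to 9.68 with a median of 7.70 in Rb/p53 tumours, and 7.02 and 6.91 in normal lung. Rb/p53 tumours 1 and 8 stood highest and tumour 4 lay below both lungs. The neuron and Schwann cell list mean was also highest in tumours 8 (7.91) and 1 (7.69), against 7.07 to 7.20 in the other Rb/p53 tumours, and its part in the Cdh4 levels was not tested. The difference was 1.00 in either group (limma adjusted p = 0.339 in Rb/p53/p130 tumours and 0.222 in Rb/p53 tumours) and did not pass the test. Fitted with the 3 Rb/p53/p130 tumours and 2 lungs alone, the gene passed in that comparison (limma adjusted p = 0.00363). Cdh6, a type II cadherin of kidney and brain, had group means of 5.26 in Rb/p53/p130 tumours, 5.24 in Rb/p53 tumours and 5.63 in normal lung, all little above the dim limit. Its call in Rb/p53 tumours (-0.39 ± 0.14, limma adjusted p = 0.04) rested on arrays that overlapped, and it was lost without any one of Rb/p53 tumours 4, 7, 8, 9 or 10, normal lung 1 or Rb/p53/p130 tumour 13 (changes of -0.22 to -0.39). A dimmer Cdh6 probe set was also called lower in Rb/p53 tumours (-0.36, limma adjusted p = 0.042), without overlap. Of the other neural cadherins, Cdh7, Cdh8, Cdh10 and Cdh18 had all group means below the dim limit and Cdh9 lay close to it, and none of the 5 was called in either comparison. One dimmer probe set of 4 for Cdh10 was called lower in Rb/p53 tumours (-0.33, limma adjusted p = 0.0292).

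The epithelial cadherins gave no rise that passed the test. Of 5 measured, 0 were called higher in limma (1 in Rb/p53/p130 tumours and 0 in Rb/p53 tumours at an unadjusted p under 0.05) and 2, Cdh16 and Cdh26, were lower in both tumour groups, and the median change was -0.31 in Rb/p53/p130 tumours and -0.32 in Rb/p53 tumours (-0.20 and -0.21 without normal lung 1). Among all genes, 15.6% were called lower in Rb/p53/p130 tumours and 20.5% in Rb/p53 tumours, and the median change was -0.02 in either comparison. Whether the epithelial list differs from all genes was not tested. Probe sets above the median level left 1 of the 5 epithelial cadherins, Cdh1, whose change there was positive (0.52 and 0.11). Cdh1, E-cadherin, was bright in every sample. It read 13.16, 13.38 and 13.55 in Rb/p53/p130 tumours, 12.64 to 13.48 with a median of 12.94 in Rb/p53 tumours, and 13.08 and 12.61 in normal lung. The 3 Rb/p53/p130 tumours lay above both lungs. The Rb/p53 tumours lay between the lungs, except tumour 5, which lay above both. The difference from lung was 0.52 in Rb/p53/p130 tumours (95% interval 0.07 to 0.97, limma adjusted p = 0.0911) and 0.11 in Rb/p53 tumours (-0.27 to 0.49, limma adjusted p = 0.695). Without Rb/p53 tumour 5, whose Cdh1 level stood apart, the Rb/p53/p130 difference passed (limma adjusted p = 0.0397). Without normal lung 2 the Rb/p53 difference turned to -0.12. Beside Cdh1, 4 of 7 broad epithelial markers in Rb/p53/p130 tumours and 5 of 7 in Rb/p53 tumours were called higher, with a list mean of 12.21 to 12.50 in Rb/p53/p130 tumours and 11.25 to 12.91 in Rb/p53 tumours, against 11.03 and 11.18 in normal lung. Their part in the level of Cdh1 was not tested.

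Cdh16, a cadherin best known from kidney tubules, read 6.27, 6.91 and 5.92 in Rb/p53/p130 tumours, 5.61 to 6.91 with a median of 5.94 in Rb/p53 tumours, and 7.71 and 8.16 in normal lung. All tumours were below both lungs. It was 2.96-fold lower in Rb/p53/p130 tumours (-1.56 ± 0.37, limma adjusted p = 0.00594) and 3.60-fold lower in Rb/p53 tumours (-1.85 ± 0.31, limma adjusted p = 0.000358). The Rb/p53/p130 call was lost without normal lung 2 (-1.34, limma adjusted p = 0.0712). Cdh26, a cadherin of mucosal epithelia, had lower means of 5.47 and 5.55 in the tumour groups, against 6.09 in normal lung (-0.62 and -0.54), and neither call held without normal lung 2 (-0.38 and -0.30). Cdh3, P-cadherin of basal epithelia, differed from lung by -0.08 in Rb/p53/p130 tumours and 0.07 in Rb/p53 tumours, with no call, and Cdh17 lay below the dim limit in all groups.

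**Figure D2:**
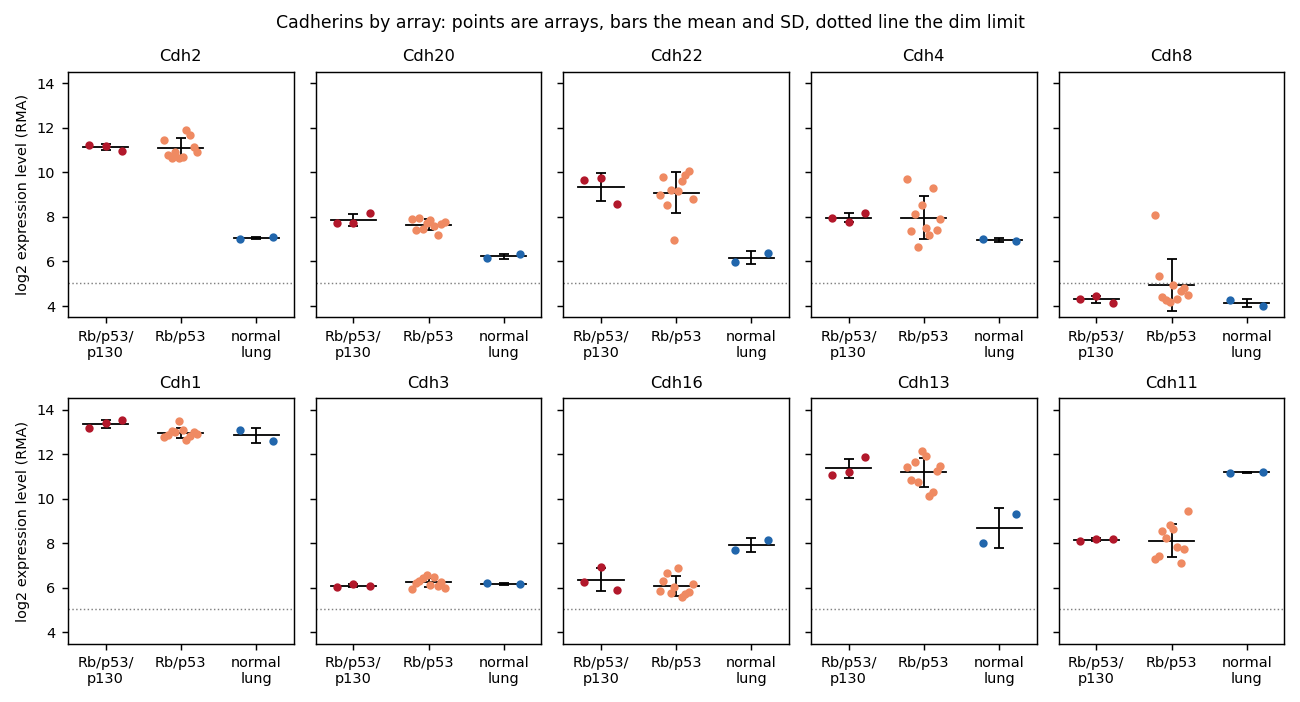
Log2 expression level (y axis) of 10 cadherins in each array, in Rb/p53/p130 tumours, Rb/p53 tumours and normal lung, with the group mean and SD; the dotted line is the dim limit of 5.05. Cdh2 and Cdh20 in tumours lie clear of normal lung, Cdh1 and Cdh3 do not, and Cdh8 stands at 8.08 in a single Rb/p53 tumour.

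Among the other cadherins, Cdh13 was higher and Cdh11 and Cdh19 were lower in both tumour groups. Cdh13 encodes T-cadherin, which is anchored by a lipid and lacks the tail that binds catenins. It read 11.07, 11.18 and 11.86 in Rb/p53/p130 tumours, 10.12 to 12.15 with a median of 11.32 in Rb/p53 tumours, and 8.03 and 9.30 in normal lung. Although the lungs differed from each other by more than 1 log2 unit, no tumour reached down to them. The change was 6.51-fold in Rb/p53/p130 tumours (2.70 ± 0.55, limma adjusted p = 0.00215) and 5.69-fold in Rb/p53 tumours (2.51 ± 0.47, limma adjusted p = 0.00077). Without normal lung 1 the Rb/p53/p130 call was lost (2.07, limma adjusted p = 0.0534). Of its 4 probe sets, 3 were called higher in both groups and the remaining one had all group means below the dim limit.

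Cdh11, OB-cadherin of mesenchymal cells, read 8.09, 8.19 and 8.20 in Rb/p53/p130 tumours, 7.12 to 9.46 with a median of 8.04 in Rb/p53 tumours, and 11.16 and 11.21 in normal lung. It was 8.13-fold lower in Rb/p53/p130 tumours (-3.02 ± 0.55, limma adjusted p = 0.000871) and 8.37-fold lower in Rb/p53 tumours (-3.07 ± 0.47, limma adjusted p = 0.000136), and no tumour overlapped the lungs. Both of its probe sets were called lower in both groups. Cdh19, known from Schwann cell precursors, had all group means below the dim limit (4.38, 4.27 and 4.89 in Rb/p53/p130 tumours, Rb/p53 tumours and normal lung), so no fold is given. Its Rb/p53/p130 call was lost without normal lung 2 (-0.42, limma adjusted p = 0.106). Cdh15, the muscle cadherin, and Cdh23, part of the tip links of inner ear hair cells, were not called.

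Of the 12 protocadherins outside the clusters, 2 were higher and 5 lower in both tumour groups. Over all genes, 15.3% were called higher and 15.6% lower in Rb/p53/p130 tumours, and 18.3% and 20.5% in Rb/p53 tumours. The 12 comprised 5 delta-1, 5 delta-2 and 2 other protocadherins. Both of the higher protocadherins belong to the delta protocadherins, which are expressed in restricted brain regions, and so does every lower one but Pcdh12. Pcdh8, known in rat neurons as arcadlin, where it draws N-cadherin in from the synapse surface, was dim in lung and bright in many tumours. It read 8.79, 8.17 and 9.36 in Rb/p53/p130 tumours, 5.51 to 9.52 with a median of 7.47 in Rb/p53 tumours, and 4.54 and 4.61 in normal lung. All tumours lay above the lungs, but the Rb/p53 tumours ranged over 4.01 log2 units. Since both lungs were below the dim limit, the change is a bound: at least 13.2-fold higher in Rb/p53/p130 tumours (4.20 ± 0.99, limma adjusted p = 0.00586) and at least 5.67-fold higher in Rb/p53 tumours (2.98 ± 0.84, limma adjusted p = 0.0136). The brightest Pcdh8 probe set carries the suffix _x, which marks probes shared with other sequences, and the other probe set was called in Rb/p53/p130 tumours (3.58, limma adjusted p = 0.0231) and not in Rb/p53 tumours (2.15, limma adjusted p = 0.0869). The Rb/p53 call was also lost without normal lung 1 (2.94, limma adjusted p = 0.105) or normal lung 2 (3.01, limma adjusted p = 0.0927).

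Pcdh9, a delta-1 protocadherin of the developing brain, read 9.72, 9.93 and 9.07 in Rb/p53/p130 tumours, 8.00 to 10.29 with a median of 8.90 in Rb/p53 tumours, and 6.57 and 6.87 in normal lung. The lungs lay below all tumours. The change was 7.22-fold in Rb/p53/p130 tumours (2.85 ± 0.62, limma adjusted p = 0.00314) and 5.20-fold in Rb/p53 tumours (2.38 ± 0.52, limma adjusted p = 0.00259). A second of its 3 probe sets was called in Rb/p53/p130 tumours (3.20, limma adjusted p = 0.0142) and not in Rb/p53 tumours (1.87, limma adjusted p = 0.0688). Pcdh7, another delta-1 gene, read 7.68, 7.22 and 6.65 in Rb/p53/p130 tumours, 5.70 to 8.76 with a median of 7.32 in Rb/p53 tumours, and 5.73 and 6.17 in normal lung. Some Rb/p53 tumours lay at the level of lung and others well above it. The gene was not called (1.23, limma adjusted p = 0.29, and 1.10, limma adjusted p = 0.235). It passed in Rb/p53/p130 tumours when these and the lungs were fitted alone (limma adjusted p = 0.0257).

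RefSeq (GRCm38.p6) gave a promoter for 20 of the 55 genes. The 4 of them called higher in both tumour groups, namely Cdh20, Cdh22, Pcdh8 and Pcdh9, are printed to let their letters be compared, as the 250 bases before the annotated start, 5′ to 3′ on the strand of the gene. Capitals mark an E-box (CANNTG), a GC box (GGGCGG or its reverse complement) or a TATA box (TATAAA or its reverse complement), searched on both strands.
Cdh20, chr1:104768270-104768519, plus strand: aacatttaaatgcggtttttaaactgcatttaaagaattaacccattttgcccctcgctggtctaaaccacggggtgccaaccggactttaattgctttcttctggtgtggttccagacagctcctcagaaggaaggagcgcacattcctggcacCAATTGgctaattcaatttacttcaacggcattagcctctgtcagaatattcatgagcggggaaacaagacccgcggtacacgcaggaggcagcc
Cdh22, chr2:165234738-165234987, minus strand: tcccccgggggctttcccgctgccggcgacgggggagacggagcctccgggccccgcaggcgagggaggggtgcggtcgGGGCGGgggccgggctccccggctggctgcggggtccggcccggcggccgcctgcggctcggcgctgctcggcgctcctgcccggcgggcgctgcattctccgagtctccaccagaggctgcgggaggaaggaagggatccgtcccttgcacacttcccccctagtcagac
Pcdh8, chr14:79771313-79771562, minus strand: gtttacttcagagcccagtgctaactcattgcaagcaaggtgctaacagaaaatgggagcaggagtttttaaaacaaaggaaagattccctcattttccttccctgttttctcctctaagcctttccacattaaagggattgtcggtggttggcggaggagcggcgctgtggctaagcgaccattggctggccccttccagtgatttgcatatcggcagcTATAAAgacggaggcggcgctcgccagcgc
Pcdh9, chr14:93890680-93890929, minus strand: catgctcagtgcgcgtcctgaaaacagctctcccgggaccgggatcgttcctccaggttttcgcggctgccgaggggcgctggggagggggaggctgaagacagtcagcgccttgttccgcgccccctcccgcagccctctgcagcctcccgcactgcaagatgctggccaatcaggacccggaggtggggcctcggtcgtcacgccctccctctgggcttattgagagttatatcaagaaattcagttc
None of the 3 motifs was shared by these windows: Cdh20 held 1 E-box, Cdh22 held 1 GC box, Pcdh8 held 1 TATA box and Pcdh9 held 0 of the 3. Of all 32851 RefSeq promoter windows of this length, 66.2% held an E-box, 32.7% a GC box and 12.4% a TATA box. The G and C content was 47.6% for Cdh20, 77.6% for Cdh22, 51.2% for Pcdh8 and 63.6% for Pcdh9, against a median of 52.4% over all windows, and the 4 windows held 10, 30, 11 and 18 CpG pairs, against a median of 6. In genes called lower in both groups, the windows held 23 CpG pairs (Pcdh18), 21 (Pcdh17), 16 (Pcdh19) and 0 (Cdh26). Counts above the median were thus not particular to the higher genes.

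The 5 protocadherins that were lower in both tumour groups were Pcdh1, Pcdh12, Pcdh17, Pcdh18 and Pcdh19. Pcdh1, a protocadherin of airway epithelium, read 7.06, 7.01 and 7.09 in Rb/p53/p130 tumours, 5.92 to 7.55 with a median of 6.90 in Rb/p53 tumours, and 9.16 and 9.80 in normal lung. It was 5.40-fold lower in Rb/p53/p130 tumours (-2.43 ± 0.39, limma adjusted p = 0.000315) and 6.51-fold lower in Rb/p53 tumours (-2.70 ± 0.33, limma adjusted p = 1.88e-05). Markers of club and ciliated airway cells had a list mean of 8.69 to 9.42 in Rb/p53/p130 tumours and 7.96 to 9.45 in Rb/p53 tumours, against 11.67 and 11.95 in normal lung, and their part in the fall of Pcdh1 was not tested. No tumour overlapped the lungs in this gene or in the 4 that follow.

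Pcdh12 is a protocadherin of endothelial cells. It read 6.30, 6.46 and 6.26 in Rb/p53/p130 tumours, 5.80 to 7.18 with a median of 6.39 in Rb/p53 tumours, and 8.77 and 9.16 in normal lung, and the changes were -2.63 ± 0.36 and -2.63 ± 0.31 (limma adjusted p = 7.82e-05 and 1.13e-05), 6.18-fold and 6.20-fold lower. The call came from 1 of its 3 probe sets, and the other two lay near or below the dim limit. Pcdh17, a delta-2 protocadherin, read 6.51, 5.96 and 6.77 in Rb/p53/p130 tumours, 4.84 to 7.37 with a median of 6.65 in Rb/p53 tumours, and 9.14 and 9.45 in normal lung. It was 7.37-fold lower in Rb/p53/p130 tumours (-2.88 ± 0.54, limma adjusted p = 0.00113) and 6.80-fold lower in Rb/p53 tumours (-2.77 ± 0.46, limma adjusted p = 0.000291). Beside these genes, 9 of 10 endothelial markers were called lower in both groups, with a list mean of 8.10 to 8.26 in Rb/p53/p130 tumours and 7.30 to 9.22 in Rb/p53 tumours, against 11.22 and 11.74 in normal lung. Among the Rb/p53 tumours, tumour 7 was the lowest in both Pcdh17 and the endothelial list (7.30), while tumour 8, the highest in Pcdh17, had the second lowest endothelial list mean (7.77). The part of this list in the falls of Pcdh12 and Pcdh17 was not tested.

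Pcdh18, another delta-2 protocadherin, read 6.31, 6.07 and 5.64 in Rb/p53/p130 tumours, 5.25 to 6.66 with a median of 6.27 in Rb/p53 tumours, and 9.06 and 9.22 in normal lung. It was 8.76-fold lower in Rb/p53/p130 tumours (-3.13 ± 0.39, limma adjusted p = 3e-05) and 8.25-fold lower in Rb/p53 tumours (-3.05 ± 0.33, limma adjusted p = 5.53e-06). Pcdh19, an X-linked delta-2 gene that pairs with N-cadherin in zebrafish and whose human form is mutated in an epilepsy, had means of 5.90 ± 0.22 in Rb/p53/p130 tumours (SD, n = 3), 5.67 ± 0.30 in Rb/p53 tumours (n = 10) and 7.31 ± 0.32 in normal lung (n = 2), with changes of -1.40 ± 0.26 and -1.64 ± 0.22 (SE, limma adjusted p = 0.000876 and 3.83e-05). Beside Cdh11 and Pcdh18, 6 of 10 fibroblast and smooth muscle markers were called lower in both groups, with a list mean of 8.97 to 9.04 in Rb/p53/p130 tumours and 8.64 to 9.85 in Rb/p53 tumours, against 11.12 and 11.15 in normal lung. All 5 mesothelial markers were lower too, at 5.84 to 6.07 and 5.62 to 6.51 in the same tumour groups, against 8.38 and 8.63 in normal lung. Their part in these falls was not tested.

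**Figure D3:**
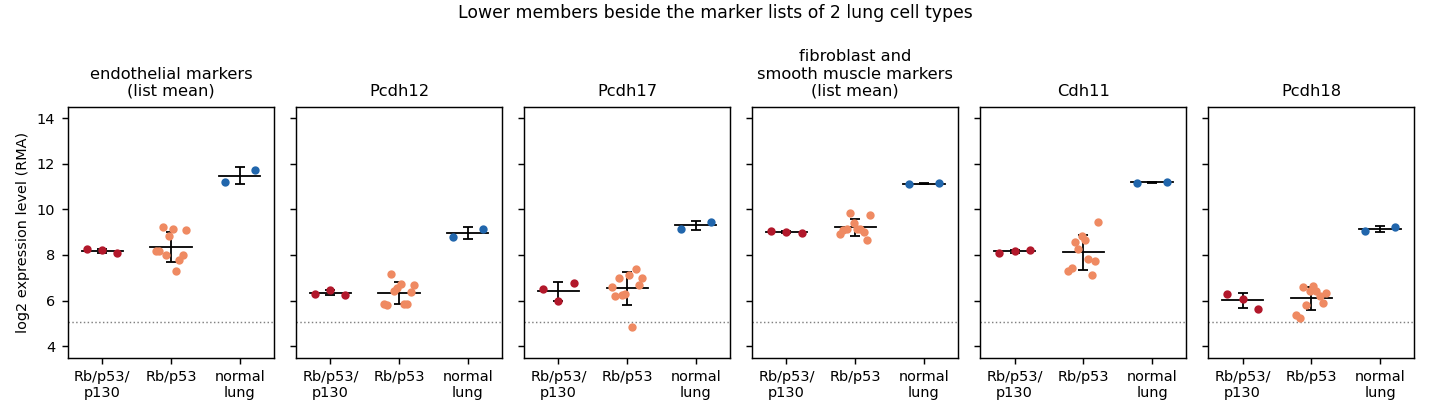
Log2 level (y axis) of 4 genes that were lower in tumours, in Rb/p53/p130 tumours, Rb/p53 tumours and normal lung, beside the mean of the 10 endothelial and the 10 fibroblast and smooth muscle markers; points are arrays and bars the mean and SD. The genes and both marker lists are lower in tumours, and no tumour reaches normal lung in any panel.

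One measure of RNA quality differed between tissue types. On the array's Gapdh controls, the 3′ probe set minus the 5′ probe set was -0.03 to 0.08 in Rb/p53/p130 tumours and -0.07 to 0.36 in Rb/p53 tumours, against 0.72 and 0.88 in normal lung. With this difference as a covariate, 2 genes stayed higher, Cdh2 and Cdh20, and 2 stayed lower, Pcdh1 and Pcdh18, in either comparison. Several changes that lost their call kept their size while their errors grew. Cdh11 was -3.59 ± 1.23 in Rb/p53/p130 tumours and -3.60 ± 1.15 in Rb/p53 tumours (SE), Cdh13 was 3.14 ± 1.24 and 2.93 ± 1.16, and Pcdh17 was -2.79 ± 1.22 and -2.68 ± 1.14. Others became smaller, such as Pcdh8 at 2.64 ± 2.20 and 1.49 ± 2.04. The tumours and lungs do not overlap in the covariate, so it and the tissue can hardly be told apart in such a fit.

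The clustered protocadherins were read for 23 of 58 genes, 22 of the beta cluster and Pcdhgc4. Beta genes are close copies of one another, so the reading of any single beta gene may include signal from its neighbours. Pcdhgc4, a gamma gene needed for the survival of neurons in mice, was called higher in both groups. It read 8.41, 8.55 and 8.31 in Rb/p53/p130 tumours, 7.90 to 8.47 with a median of 8.22 in Rb/p53 tumours, and 7.63 and 7.22 in normal lung. The tumours kept within a narrow range above both lungs, and the change was 2.00-fold in Rb/p53/p130 tumours (1.00 ± 0.18, limma adjusted p = 0.000706) and 1.71-fold in Rb/p53 tumours (0.77 ± 0.15, limma adjusted p = 0.00103). Without normal lung 2 the Rb/p53 call was lost (0.57).

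Of the 22 beta genes, 0 were called in limma in Rb/p53/p130 tumours, where 3 had an unadjusted p under 0.05, and 2 were called in Rb/p53 tumours. Pcdhb16 was higher there (0.98 ± 0.35, limma adjusted p = 0.0445), with group means of 8.12 in Rb/p53/p130 tumours, 8.63 in Rb/p53 tumours and 7.65 in normal lung. Its call was lost without any one of Rb/p53 tumours 3, 7 or 10, either lung or any Rb/p53/p130 tumour, with changes of 0.76 to 1.21. A dimmer probe set of the gene was called higher in both groups (1.50 and 1.32, limma adjusted p = 0.0264 and 0.0173). Pcdhb18 was called lower (limma adjusted p = 0.0405) with all group means below the dim limit, so no fold is given, and this call too was lost on leaving out any of 10 arrays, namely Rb/p53 tumours 4, 5, 6, 7 and 10, both lungs and all Rb/p53/p130 tumours (-0.29 to -0.32). A further 6 probe sets each list 9 to 14 genes of the alpha cluster and can name none of them, and 0 of these were called by limma in any comparison, with 1 at an unadjusted p under 0.05, lower in Rb/p53/p130 tumours than in normal lung.

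While few beta genes were called against lung, several varied widely between tumours. Among the 10 Rb/p53 tumours, 6 of 22 ranged over more than 2 log2 units, 10 over at most 1, and the median range was 1.14. Pcdhb9 read 4.57, 4.22 and 4.90 in the Rb/p53/p130 tumours, covered 4.19 log2 units in the Rb/p53 tumours, with 8.16 in tumour 8 and 3.97 in tumour 9, and read 4.75 and 4.91 in normal lung. Pcdhb7 read 5.82, 5.50 and 6.73 in the Rb/p53/p130 tumours, covered 4.02 units in the Rb/p53 tumours, with 8.35 in tumour 8 and 4.32 in tumour 2, and read 6.77 and 6.62 in normal lung. Pcdhb3 read 5.83, 5.89 and 7.39 in the Rb/p53/p130 tumours, covered 3.50 units in the Rb/p53 tumours, with 8.06 in tumour 8 and 4.57 in tumour 1, and read 7.37 and 7.43 in normal lung. For Pcdhb9, Pcdhb7 and Pcdhb3 the lungs thus lay inside the range of the Rb/p53 tumours. Of the 6 wide-ranging genes 4 were highest in tumour 8. The fourth of these was Pcdhb10, and Pcdhb12 and Pcdhb21 were highest in tumours 3 and 2. These last genes are named after their values were seen.

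**Figure D4:**
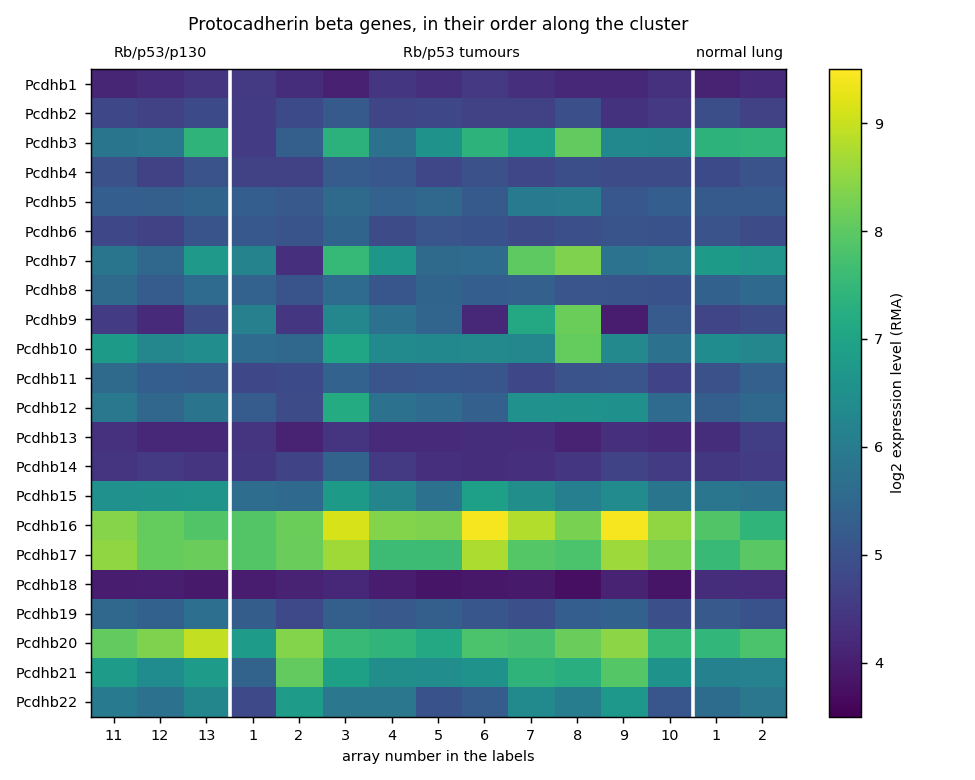
Log2 expression level (colour) of 22 protocadherin beta genes (rows, in the order of the RefSeq table) in each array (columns, by group and array number); colours are read along a row, since probe sets of different genes do not share a scale. Pcdhb3, Pcdhb7, Pcdhb9 and Pcdhb10 are highest in Rb/p53 tumour 8, while 10 genes range over no more than 1 log2 unit among the Rb/p53 tumours.

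Across the whole family, 15 of the 55 genes (27.3%) ranged over more than 2 log2 units among the Rb/p53 tumours, against 12% of all genes, and the median SD over these 10 tumours was 0.33, against 0.28 for all genes. The 6 highest SDs were those of Pcdh8 (1.35), Pcdhb9 (1.32), Pcdhb7 (1.25), Cdh8 (1.16), Pcdh7 (1.05) and Pcdhb3 (1.05). Of the 15 wide-ranging genes, 6 were highest in tumour 8 and 3 in tumour 1. Cdh8, a type II cadherin of the forebrain, was dim almost everywhere. It read 4.32, 4.45 and 4.15 in Rb/p53/p130 tumours, 4.16 to 8.08 with a median of 4.58 in Rb/p53 tumours, and 4.25 and 3.99 in normal lung. Tumour 1 stood alone at 8.08 and tumour 2 came next at 5.36. The same tumour 1 was the highest in Cdh4 (9.68) and Pcdh9 (10.29) and the lowest in Pcdh8 (5.51), whereas tumour 8 was the highest in Pcdh8 (9.52) and second in Cdh4 (9.29). Tumour 10 was the highest in Pcdh7 (8.76) and Cdh11 (9.46). No label separates these tumours, and each is 1 array, so no groups of tumours were compared.

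**Figure D5:**
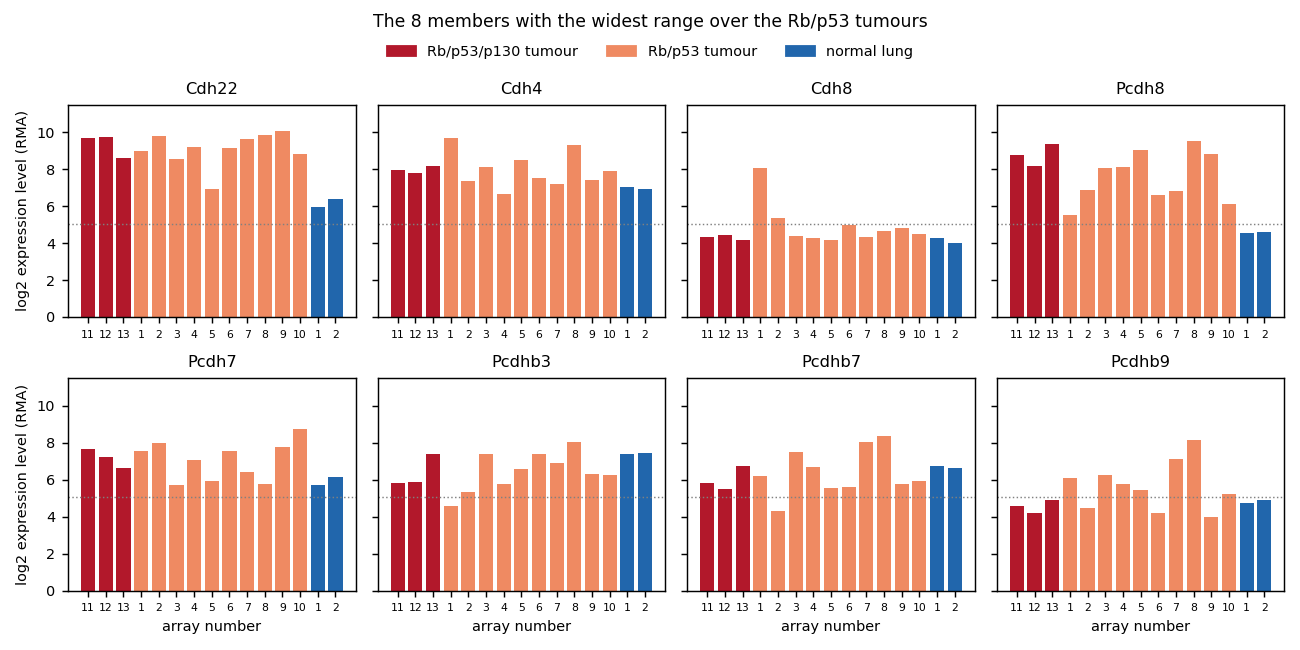
Log2 expression level (bars, from 0) in every array for the 8 genes with the widest range over the Rb/p53 tumours, in Rb/p53/p130 tumours, Rb/p53 tumours and normal lung by array number; the dotted line is the dim limit of 5.05. Different tumours stand out in different genes: tumour 1 in Cdh8, tumour 8 in Pcdhb9, and tumour 5 as the lowest in Cdh22.

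Between the tumour genotypes, 0 of the 55 genes were called in limma, and 4 had an unadjusted p under 0.05. Of all genes 0.0715% were called, and the median change was 0.01 for the family and 0.01 for all genes. In each of the 55 genes the arrays of the 2 genotypes overlapped, against 1.1% of all genes that lay wholly above and 0.868% wholly below. The smallest p-values belonged to Pcdhb19 (0.36, 95% interval 0.09 to 0.62, limma adjusted p = 0.308), Cdh1 (0.41, 0.08 to 0.73, limma adjusted p = 0.358) and Pcdhb11 (0.37, 0.07 to 0.66, limma adjusted p = 0.36). For Cdh2 the difference was 0.05 (-0.48 to 0.58), an interval within 1 log2 unit of 0 on either side. For Pcdh8 it was 1.22 (-0.31 to 2.76), so a level several fold higher in Rb/p53/p130 tumours and a level slightly lower there both lie within the interval.

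Genes whose proteins work with cadherins were read next. For comparison, 15.3% of all genes were called higher and 15.6% lower in Rb/p53/p130 tumours, and 18.3% and 20.5% in Rb/p53 tumours. Whether any of these lists differs from all genes was not tested. Of 15 catenins and related armadillo proteins, 4 were higher and 3 lower in Rb/p53/p130 tumours, and 4 were higher and 5 lower in Rb/p53 tumours, with medians of 0.05 and 0.04. The higher ones included both of the neural catenins. Ctnna2, the alpha-catenin of neurons, had means of 8.30 and 8.32 in Rb/p53/p130 and Rb/p53 tumours, against 5.15 in normal lung (3.15 and 3.17, limma adjusted p = 0.000184 and 2.72e-05). Ctnnd2, the delta-catenin of neurons, averaged 9.34 and 9.53 in these groups, against 6.99 in normal lung (2.35 and 2.55), and Ctnnbip1, which blocks beta-catenin from its transcription partners, averaged 8.99 and 9.01, against 7.05 (1.94 and 1.96).

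Of 22 other genes of the cadherin superfamily, 7 were higher and 4 lower in either tumour group. Ret, a receptor tyrosine kinase with cadherin-like domains, averaged 11.24 ± 0.16 in Rb/p53/p130 tumours and 11.16 ± 0.39 in Rb/p53 tumours, against 5.78 ± 0.27 in normal lung (SD), a rise of 44.1-fold and 41.8-fold (limma adjusted p = 1.98e-08 and 2.7e-09). Celsr3, a cadherin with a receptor domain that guides axons, was at least 13.3-fold and 15.6-fold higher, with means of 8.78 and 9.01 in the tumour groups, against 4.82 in normal lung. Cdhr3, a cadherin of ciliated airway cells, was 25.7-fold and 19.3-fold lower, with means of 5.81 and 6.22, against 10.49 in normal lung. Beside it, 5 of 8 club and ciliated markers in Rb/p53/p130 tumours and 6 of 8 in Rb/p53 tumours were called lower, and their part in the fall was not tested.

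Of 17 regulators of E-cadherin, 4 were higher and 5 lower in Rb/p53/p130 tumours and 5 were higher and 5 lower in Rb/p53 tumours. Snai2 and Zeb2, repressors of Cdh1 transcription in epithelial cells, were lower: Snai2 averaged 7.81 and 8.03 in Rb/p53/p130 and Rb/p53 tumours, against 10.55 in normal lung, and Zeb2 averaged 7.03 and 8.00, against 10.38. The fibroblast and endothelial lists given above were also lower in every tumour than in either lung. The part of those lists in the falls of Snai2 and Zeb2 was not tested. Elf3, an epithelial transcription factor, was higher, at 10.11 and 10.13, against 7.89 in normal lung. Of 11 genes for the choice of clustered protocadherins, 7 were higher and 0 lower in Rb/p53/p130 tumours and 6 were higher and 0 lower in Rb/p53 tumours, with a median of 0.68 and 0.64 (0 lower in either group at an unadjusted p under 0.05). They included Ctcf, which loops the clusters' DNA (0.59 and 0.94), and the cohesin subunits Smc1a (1.01 and 1.02) and Smc3 (0.96 and 0.72). The share of all genes called higher was 15.3% in Rb/p53/p130 tumours and 18.3% in Rb/p53 tumours. Whether these changes bear on the choice of protocadherins was not tested. Of 9 genes that shed cadherins or carry them into the cell, 0 were higher (0 and 1 at an unadjusted p under 0.05) and 3 lower in either group, namely the endocytic adaptor Numb (-1.28 and -1.60), the membrane protease Adam15 (-1.38 and -1.28) and the gamma-secretase subunit Psen2 (-1.11 and -0.87).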

How the data were processed

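Total RNA was isolated with Trizol, amplified in 2 rounds with a RiboAmp kit and put on Affymetrix mouse arrays, as the labels' protocols state. The authors deposited log2 expression levels for every probe set of an array. RMA, in a version that is not given, produced them per the submitters' processing notes. RMA gives all arrays nearly the same distribution and so hides any shift of the bulk of genes, while amplification favours the 3′ end of RNA.

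From the deposited log2 values, 64 control probe sets were left out and 45037 kept. Of these, 34945 list 1 gene symbol, 932 several and 9160 none; 34741 were matched by gene ID to RefSeq (GRCm38.p6). Of the 55 genes described, 26 had several probe sets. limma 3.58.1 (R 4.3.3) was fitted to the 3 groups in 1 model, and its p-values, Benjamini-Hochberg adjusted across all kept probe sets, were called under 0.05. Errors are the SE of changes, 95% intervals, or the SD of levels. A fold whose lower group averaged at or below 5.05 is a lower bound, set against that limit. The fit was checked on simulated data. Figures used matplotlib 3.10.9.

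The genes and lists were chosen with earlier results of these data known. Named were called cadherins and non-clustered protocadherins with 9 preset ones, the called clustered genes, the 6 genes with the highest SD over the Rb/p53 tumours, the 3 smallest p-values between genotypes, and up to 3 called genes per partner list. A gene named otherwise is said to be so. The array numbers 1 and 2 are shared by Rb/p53 tumours and normal lungs, but nothing in the labels pairs them. Alternatives normalised again by quantiles, kept probe sets above the median, fitted the compared groups alone, added the Gapdh covariate, averaged a gene's probe sets, left out suffixes _s, _x and _a, used a trended and robust prior, blocked on the array number, and left out each array.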

Additional observations from a re-analysis of the deposited data

Results flagged for a closer look

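In 10 of the 55 genes (18.2%), 1 of the 10 Rb/p53 tumours stood so far from the rest that its gap to the nearest tumour, divided by the whole range, passed Dixon's critical value of 0.466; chance gives this for about 1 in 20 groups of normal values, and 8.81% of all 18193 genes passed it. Whether the family differs from all genes in this was not tested. These genes are named because they met this rule. Cdh8 stood at 8.08 in tumour 1, where the next tumour read 5.36, and this is the only high value of the gene in any array. Tumour 1 was also the highest in Cdh9, at 5.95. Cdh22 was lowest in tumour 5, at 6.94 against 8.53 for the next tumour, and Cdh1 was highest in that tumour, at 13.48. Pcdh17 was lowest in tumour 7, at 4.84 against 6.19 for the next. Tumour 3 was highest in Pcdhb14 (5.41) and Pcdhb6 (5.42), tumour 2 was highest in Pcdh20 (5.37), tumour 8 was lowest in Cdh19 (3.97) and tumour 10 was lowest in Cdh26 (5.21), all close to or below the dim limit.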

How the results depend on the processing

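Calls of Cdh2, Cdh20, Pcdh1 and Pcdh18 against normal lung held under every alternative in which they were refitted. With the Gapdh covariate the counts were 2 higher and 2 lower in either comparison with lung, with wider errors and, for Cdh11, Cdh13 and Pcdh17, changes of like size, the neural median was 1.19 in Rb/p53/p130 tumours and 1.22 in Rb/p53 tumours, the epithelial median in Rb/p53/p130 tumours was -0.52, and signs turned for Cdh6 (0.10 in Rb/p53/p130 and 0.058 in Rb/p53 tumours), Pcdh7 (-0.055 and -0.12) and Pcdhb18 (0.17 in Rb/p53 tumours). Probe sets above the median level left 18 of the 55 genes, with 4 lower in either comparison with lung. Neural medians were then 2.41, 2.18 and 0.13 (Rb/p53/p130 against lung, Rb/p53 against lung, between genotypes), and epithelial medians, from Cdh1 alone, were 0.52, 0.11 and 0.41. Fewer genes were tested, and a filter on the mean over mostly tumour arrays favours genes bright in tumours. Compared groups alone gave 11 higher genes in Rb/p53/p130 tumours. Averaging a gene's probe sets turned Cdh3 in Rb/p53 tumours to -0.034 and Cdh8 in Rb/p53/p130 tumours to -0.0046. Without suffixed probe sets Cdh23 has no reading. Same-numbered arrays did not deviate together (r = -0.00 and -0.06). Only the numbers 1 and 2 occur in both groups. A replicate block on the array number thus sets Rb/p53 tumours 1 and 2 alone against the 2 lungs. It gave 6 higher and 8 lower genes, a neural median of 0.96 and an epithelial median of -0.56. Calls were gained for Pcdh7 (1.81, limma adjusted p = 0.0102) and Pcdhb3 (-2.46, limma adjusted p = 0.00833), and the changes were -0.022 for Cdh1 and -0.10 for Cdh3. These values describe those 2 tumours and not all 10. Leaving out 1 array at a time, counts ran from 6 to 8 higher and 6 to 9 lower in Rb/p53/p130 tumours, 5 to 8 higher and 9 to 11 lower in Rb/p53 tumours, and 0 to 0 between genotypes. Neural medians ran from 0.14 to 0.29, 0.34 to 0.59 and -0.01 to 0.05, and epithelial medians from -0.38 to -0.20, -0.35 to -0.21 and -0.03 to 0.07, in the order above. Cdh1 in Rb/p53 tumours was -0.12 without normal lung 2, and Cdh2 between genotypes was -0.00204 without Rb/p53/p130 tumour 11. Without 1 lung, the other is assumed to vary like the other groups. The cause of the other shifts was not tested.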
